A study of Homo sapiens with 15 samples.

Results

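ATP-binding cassette (ABC) genes are the genes whose approved symbol is ABC, a subfamily letter from A to G and a number. In the RNA-seq tables of 143B cells, an established human osteosarcoma cell line, 45 protein-coding genes met that rule, of 20046 protein-coding genes and 62700 gene identifiers listed in both tables. There were 15 libraries in 5 groups of 3. Osteosarcoma stem cells (OSCs) were wild-type 143B cells grown as spheres in serum-free DMEM/F12 with B27 lacking vitamin A, EGF and bFGF, whereas non-OSCs were wild-type 143B cells grown attached in DMEM with serum. The other groups were OSCs that carried a lentiviral vector: a control (shCtrl) or 1 of 2 hairpins against PDK1 (shPDK1#1 and shPDK1#2). The paper lists the pLKO.1 puro plasmid and names no control hairpin, so shCtrl may lack one. PDK1 encodes pyruvate dehydrogenase kinase 1. OSCs and non-OSCs differ in medium and in culture format together, and these cannot be told apart. All groups are models from 1 cell line. The 2 tables were tested separately, so no level is compared between them.

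ABC proteins bind and split ATP at paired nucleotide-binding domains. In subfamilies A, B, C, D and G this is coupled to transmembrane domains that move lipids, sterols, drugs, conjugates, heme or peptides across a membrane, and several B, C and G members are known as efflux pumps for chemotherapeutic drugs. ABCE1 and the ABCF proteins have no membrane domains and work on the ribosome, in recycling and in translation control.

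Summed expected counts, the estimated number of read pairs per gene, were between 7992505 and 10495047 per library for OSCs and non-OSCs and between 8073051 and 11256530 in the hairpin libraries. Levels are given as counts per 1000000 of the normalised library size (CPM), as mean ± SD with n = 3 unless each library is given. PDK1 was 46.7, 44.7 and 44.4 CPM in shCtrl, 29.0, 27.8 and 27.3 CPM under shPDK1#1 and 18.3, 21.5 and 19.6 CPM under shPDK1#2, so no hairpin library overlapped shCtrl. In OSCs PDK1 was 70.3 ± 3.03 CPM and in non-OSCs 46.6 ± 4.47 CPM. Of 9 osteoblast and mesenchymal markers, SP7 and IBSP had at most 1 count and BGLAP at most 7 in any library, while RUNX2, COL1A1, SPARC, SPP1 and VIM were well detected. Of 13 markers of other cells, 5 had at most 3 counts in every OSC library (PTPRC, CD3D, NKG7, CDH1 and VWF). The whole list summed to between 38.2 and 41.0 CPM in non-OSCs and to between 105.5 and 105.8 CPM in OSCs, mostly from MMP9 and ACTA2. The sum was between 76.3 and 81.9 CPM under shCtrl, between 55.8 and 64.6 CPM under shPDK1#1 and between 47.3 and 47.9 CPM under shPDK1#2. The part of these genes in the differences below was not tested.

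Of the 45 members, 25 passed edgeR's filter on low counts in both tables and ABCA13 passed in the hairpin table only. The other 19 had at most 15 counts in any of the 15 libraries. Of these 19, 8 had at most 3 counts everywhere. Among them, ABCG5 and ABCG8, the partners of the intestinal and biliary sterol exporter, had counts in 1 library each. ABCC2, ABCC3, ABCC6 and ABCC11, which export conjugates, ABCB5, and ABCB11, the bile salt export pump, were also not tested. ABCC9, a regulatory subunit of ATP-sensitive potassium channels, had 3, 8 and 8 counts in the non-OSC libraries and 0, 1 and 1 in the OSC libraries. ABCA4, the retinoid flippase of photoreceptors, had 12, 4 and 8 counts with shPDK1#2 and between 0 and 3 counts in every other library. At these counts no fold is given.

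Per kilobase of transcript, the most abundant members were ABCF1 and ABCE1. ABCF1 was 60.7 ± 0.155 CPM per kb in non-OSCs and 40.7 ± 0.464 in OSCs, and ABCE1 was 58.7 ± 6.73 CPM per kb in non-OSCs and 37.6 ± 0.512 in OSCs. In non-OSCs these neighbours in the order did not differ beyond their spread, and the next member, ABCF3, was at 18.2 ± 1.06 CPM per kb. In OSCs the third place was held by ABCA2, at 15.1 ± 0.317 CPM per kb, which was ninth in non-OSCs at 9.37 ± 0.943. ABCF3, ABCD4 and ABCC1 followed in OSCs at 14.10 ± 0.617, 14.05 ± 1.36 and 13.5 ± 0.915 CPM per kb, which overlapped. Among the efflux pumps, ABCC1 was the highest per length, whereas ABCB1 and ABCG2 in OSCs were among the 5 lowest members tested. The genes that act on the ribosome (ABCE1 and ABCF1 to ABCF3) supplied 44.4% ± 1.58 of all family CPM in non-OSCs and 31.9% ± 0.286 in OSCs. They supplied 38.5% ± 0.598 with shCtrl, 38.8% ± 0.673 with shPDK1#1 and 40.3% ± 0.21 with shPDK1#2.

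**Figure D1:**
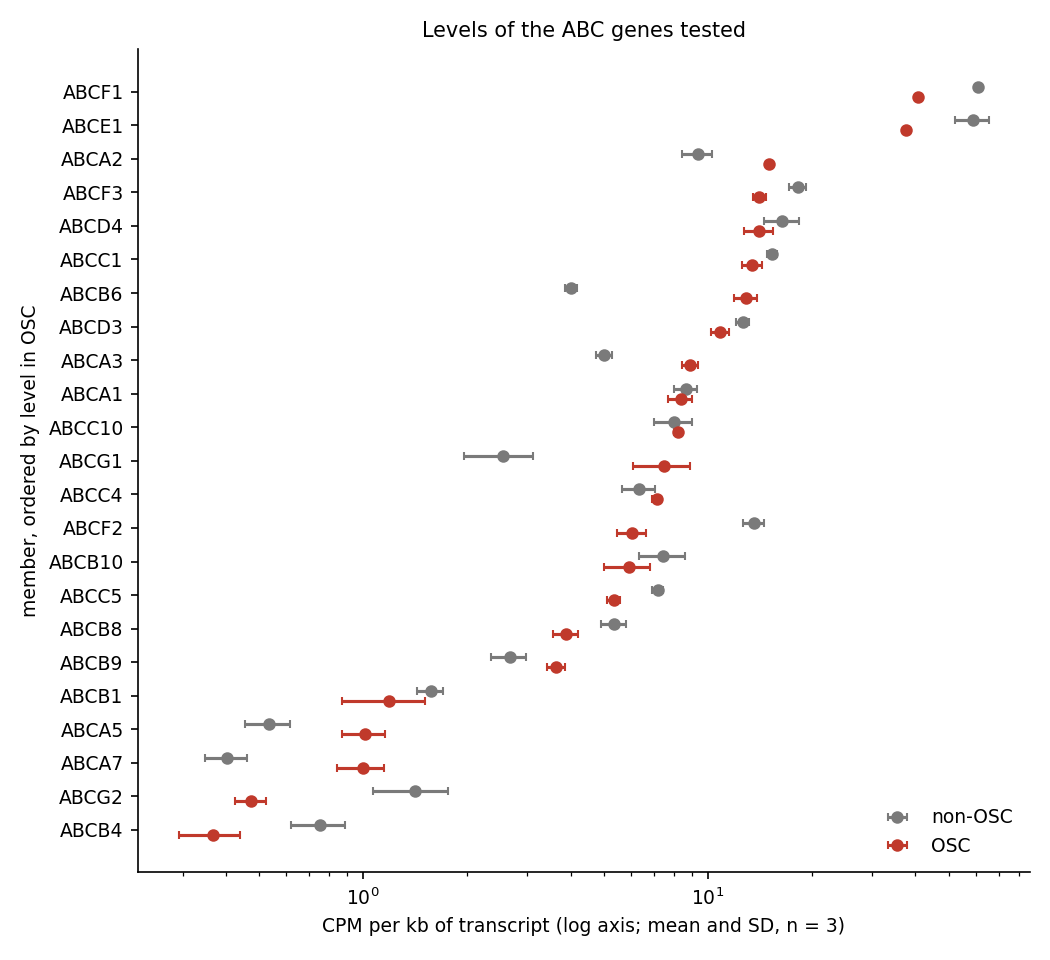
Level of 23 members tested in OSCs (red) and non-OSCs (grey), in CPM per kb of transcript on a log axis. Points are means and bars SDs of 3 libraries. ABCF1 and ABCE1 stand apart at the top, and ABCB4 and ABCG2 are lowest in OSCs.

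Comparing OSCs with non-OSCs asks how the family differs between sphere-grown and attached cells of the same line. Of 25 members tested, 21 differed at an adjusted p under 0.05 in the edgeR quasi-likelihood fit (Benjamini-Hochberg over all genes), beside 63.9% of all genes tested. In OSCs 8 were higher, beside 32.4% of all genes, and 13 were lower, beside 31.5%. For 20 of the 25 no OSC library lay within the non-OSC range, beside 66.9% of all genes. The median log2 fold change was -0.22 over the 25 members and -0.01 over all genes. Subfamily A held 4 of the higher members and no lower one, and subfamilies E and F held 4 of the lower members and no higher one. In subfamilies B, C and G, for example, members lay on both sides of zero. The largest rises, in the counts as deposited, were in ABCB6, ABCG1 and ABCA7 and the largest falls in ABCG2, ABCF2 and ABCB4. These are bulk samples, in which a smaller share of cells of a kind and less RNA in each cell cannot be told apart. The labels do not say that replicates were separate cultures, so p-values measure the spread between these libraries, which may be technical.

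**Figure D2:**
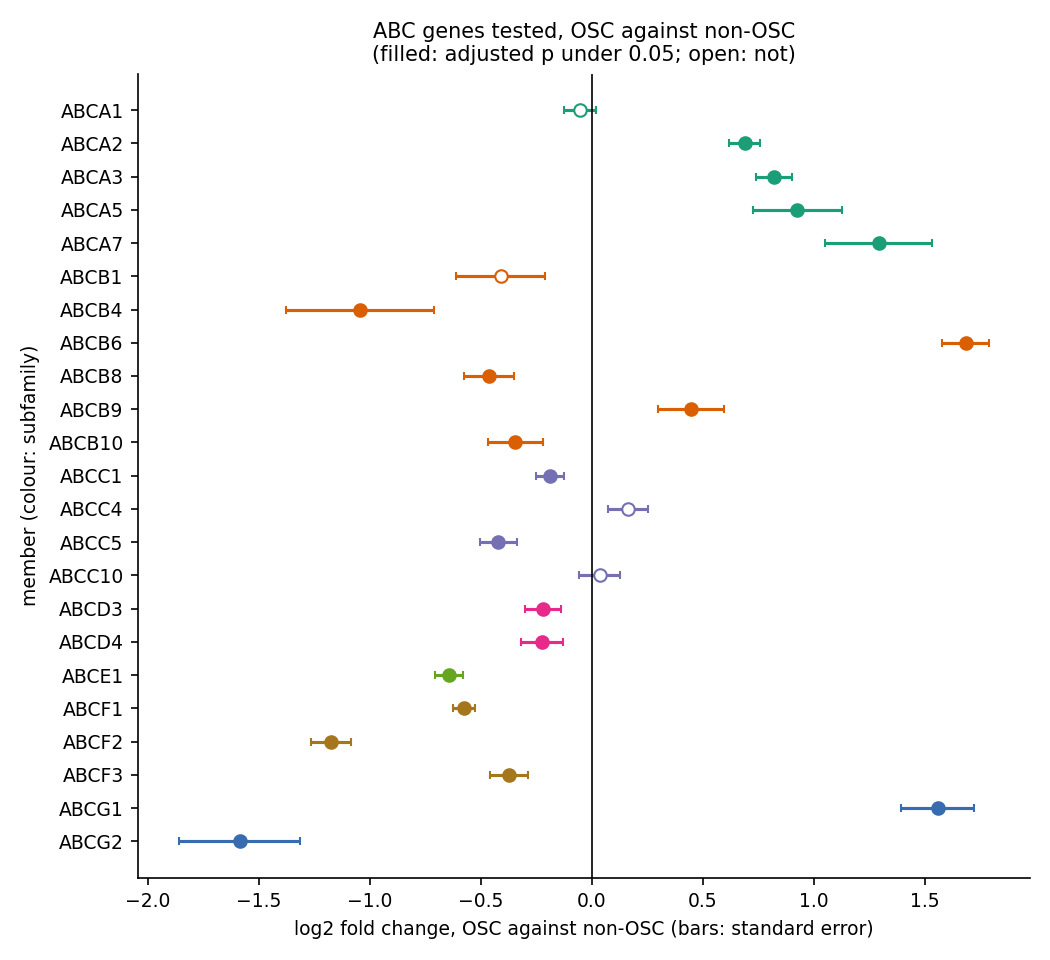
Log2 fold change of 23 members tested in OSCs against non-OSCs, with its standard error, ordered and coloured by subfamily. Filled points passed an adjusted p under 0.05, and all 4 members of subfamilies E and F lie left of zero.

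All members that act on the ribosome were lower in OSCs. ABCE1 (chr4:145098288-145129524, plus strand) splits ribosomes into subunits after termination, and it measured 258.4, 213.2 and 213.1 CPM in the non-OSC libraries and 145.1, 148.6 and 145.2 CPM in the OSC libraries. Its log2 fold change was -0.64 (SE 0.06, adjusted p = 1.6e-08), and 6.52% of its exon bases are covered by genes on the opposite strand. ABCF1 (chr6:30571393-30597179, plus strand), which binds the initiation factor eIF2, measured 206.1, 207.1 and 206.8 CPM in non-OSCs and 136.9, 139.9 and 139.2 CPM in OSCs, a log2 fold change of -0.58 (SE 0.05, adjusted p = 1.2e-09). In both genes every OSC library was below every non-OSC library. ABCF2 (chr7:151211484-151227205, minus strand) showed the largest fall of the 4, from 62.4, 57.0 and 65.7 CPM in non-OSCs to 25.4, 26.4 and 30.3 CPM in OSCs, a log2 fold change of -1.17 (SE 0.09, adjusted p = 1.8e-10). On the same strand, 37.1% of its exon bases belong also to a readthrough gene, ABCF2-H2BK1, which was itself lower in OSCs (2.49 against 8.35 CPM). With the counts of both added together, the log2 fold change was -1.23. ABCF3 fell from 44.6 ± 2.59 to 34.5 ± 1.51 CPM, a log2 fold change of -0.37 (SE 0.08).

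A list of 13 other genes of ribosome recycling, termination and initiation was read in the same fit. Of these, 12 were lower and 1 was higher in OSCs, beside 31.5% and 32.4% of all genes, with a median log2 fold change of -0.52 against -0.01 over all genes. The largest fall was in ETF1, the release factor that reads stop codons, from 231.3 to 128.9 CPM (log2 fold change -0.84, SE 0.05). EIF1, which guards start-codon choice, was the 1 that rose, from 357.2 ± 8.9 to 465.7 ± 7.15 CPM (log2 fold change 0.38, SE 0.04).

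Because these 4 genes moved together, the bases before their start sites are shown. RefSeq promoters (GRCh38.p14) were found for 35 of the 45 members. Those without an entry included ABCA4, ABCA8, ABCB4, ABCB5, ABCC1, ABCC3, ABCC8 and ABCG1. The 250 bases before each start were searched on both strands for 9 motifs. Of 35116 promoters, 42.6% held the GC box GGGCGG, 32.0% the CCAAT box CCAAT, 12.1% the nuclear receptor element AGGTCA, 10.7% the TATA motif TATAAA and 8.52% the ETS core CCGGAAG. The NRF1 core TGCGCA was in 6.89%, the AP-1 motif TGANTCA in 6.57%, the E-box CACGTG in 6.34% and the cAMP response element TGACGTCA in 1.65%. The GC box was in 8 of 10 members that were lower in OSCs, in 5 of 6 that were higher, in 2 of 4 that were not called and in 3 of 15 that were not tested, so it did not separate higher from lower members. ABCF1, ABCF2 and ABCF3 held it and ABCE1 did not. Of the 35 members, ABCE1 was the only one with the cAMP response element. In the lines that follow, printed 5′ to 3′ on the strand of the gene, capitals mark the motif or its reverse complement. ABCE1 shows the cAMP response element at -98 from the start (chr4:145098203-145098230). The wider stretch around it, chr4:145098193-145098240, overlaps an exon of ANAPC10, a gene on the opposite strand. ABCF1 shows the E-box at -79 (chr6:30571343-30571388), which overlaps an NRF1 core at -75 and is followed by a GC box at -63 in lower case. ABCF2 shows a GC box at -201 (chr7:151227381-151227426) and ABCF3 a GC box at -142 (chr3:184186037-184186082), followed by an NRF1 core at -127.
ABCE1: cgcagctcaaTGACGTCAtatctcccta
ABCF1: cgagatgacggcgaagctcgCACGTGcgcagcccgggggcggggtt
ABCF2: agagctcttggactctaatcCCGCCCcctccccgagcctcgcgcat
ABCF3: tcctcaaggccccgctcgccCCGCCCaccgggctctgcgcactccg
Other matches before ABCF1, ABCF2 and ABCF3 are not printed. A match of letters describes these windows and does not show binding.

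Exporters of sterols and phospholipids moved in different directions. ABCG1 (chr21:42199689-42297244, plus strand), which moves cholesterol from cells to lipoproteins, measured 5.88, 9.30 and 7.49 CPM in the non-OSC libraries and 20.6, 19.1 and 26.9 CPM in the OSC libraries. The libraries did not overlap, and the log2 fold change was 1.56 (SE 0.17, adjusted p = 4.0e-08), with group means 2.94-fold apart. ABCA7 (chr19:1039997-1065572, plus strand), a phospholipid exporter, measured 2.99, 2.96 and 2.31 CPM in non-OSCs and 7.89, 5.77 and 6.76 CPM in OSCs, a log2 fold change of 1.29 (SE 0.24, adjusted p = 7.2e-05). ABCA1, which loads cholesterol onto apolipoprotein A-I and, like ABCG1, is a classic target of the liver X receptors, did not differ detectably, with 89.7 ± 6.78 CPM in non-OSCs and 86.7 ± 7.03 in OSCs (log2 fold change -0.05, SE 0.07, adjusted p = 0.53). ABCB4 (chr7:87401696-87480435, minus strand), the phosphatidylcholine flippase of bile, was lower, with 3.86, 2.74 and 3.09 CPM in non-OSCs and 1.48, 1.32 and 1.93 CPM in OSCs (log2 fold change -1.04, SE 0.33, adjusted p = 0.0095). Its OSC libraries held 12, 13 and 16 counts, and without non-OSC replicate 1 the log2 fold change was -0.89 (adjusted p = 0.059).

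Of 17 genes of sterol sensing and liver X receptor signalling, 12 were higher and 2 lower in OSCs, beside 32.4% and 31.5% of all genes, with a median log2 fold change of 0.26 against -0.01 over all genes. SMPDL3A, a sphingomyelinase-like phosphodiesterase induced by sterols, rose most, from 3.33 to 19.7 CPM (log2 fold change 2.56, SE 0.16). NPC2, which hands cholesterol out of lysosomes, fell most, from 127.2 to 80.3 CPM (log2 fold change -0.66, SE 0.06).

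Of 6 efflux pumps for drugs and conjugates that could be tested, 3 were lower in OSCs and none was higher at the threshold, beside 31.5% lower and 32.4% higher over all genes, so the share called was below the 63.9% of all genes. ABCG2 (chr4:88090150-88231628, minus strand), a pump for many chemotherapeutic drugs and the basis of the side-population assay, measured 7.43, 4.49 and 5.95 CPM in the non-OSC libraries and 2.22, 1.82 and 1.93 CPM in the OSC libraries. Every OSC library was below every non-OSC library, and the OSC mean was 33.4% of the non-OSC mean. The log2 fold change was -1.59 (SE 0.27, adjusted p = 3.1e-05), on 16 to 18 counts in each OSC library. ABCB1 (chr7:87503017-87713323, minus strand), which encodes P-glycoprotein, measured 8.0, 8.98 and 7.60 CPM in non-OSCs and 5.54, 4.96 and 8.09 CPM in OSCs. OSC replicate 3 lay within the non-OSC range, and the difference did not pass the threshold (log2 fold change -0.41, SE 0.20, adjusted p = 0.077). Without that library it did, at -0.64 (adjusted p = 0.014), the only 1 of 6 fits leaving out 1 library to pass. Without OSC replicate 2 the log2 fold change was -0.26. ABCC1 (chr16:15949138-16143257, plus strand), a pump for drugs and glutathione conjugates, measured 96.3, 102.0 and 101.1 CPM in non-OSCs and 80.9, 89.4 and 92.4 CPM in OSCs. Its fall was small, at a log2 fold change of -0.19 (SE 0.06, adjusted p = 0.015), and without OSC replicate 1 it was -0.13 (adjusted p = 0.10). ABCC5 (chr3:183919934-184017939, minus strand), an exporter of cyclic nucleotides, fell from 41.2, 42.9 and 40.1 CPM to 31.2, 32.1 and 29.5 CPM, with no overlap (log2 fold change -0.42, SE 0.09, adjusted p = 2.0e-04). ABCC4, also an exporter of cyclic nucleotides, was 37.1 ± 4.12 CPM in non-OSCs and 41.6 ± 1.26 CPM in OSCs (adjusted p = 0.125). Without non-OSC replicate 1 its log2 fold change went from 0.16 to 0.26 (adjusted p = 0.015). ABCC10 was 40.3 ± 5.02 and 41.2 ± 0.93 CPM (adjusted p = 0.75).

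Among 12 regulators of drug response genes, 10 were tested, and OSCs had 4 of them higher and 2 lower, a share of 60.0% beside 63.9% of all genes. AHR, the xenobiotic-sensing aryl hydrocarbon receptor, rose most, from 63.0 to 207.8 CPM (log2 fold change 1.72, SE 0.06), and YBX1, a nucleic acid-binding protein, fell most, from 1716 to 1035 CPM (log2 fold change -0.73, SE 0.04). Of 15 genes of drug handling outside the family, 6 were higher and 5 lower, a share of 73.3%, and without non-OSC replicate 2 the number called was 7 in place of 11. The copper transporter ATP7A rose most, from 13.9 to 48.2 CPM (log2 fold change 1.79, SE 0.11), and the carnitine transporter SLC22A5 fell most among the genes of at least 5 CPM, from 7.73 to 4.04 CPM (log2 fold change -0.93, SE 0.21).

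**Figure D3:**
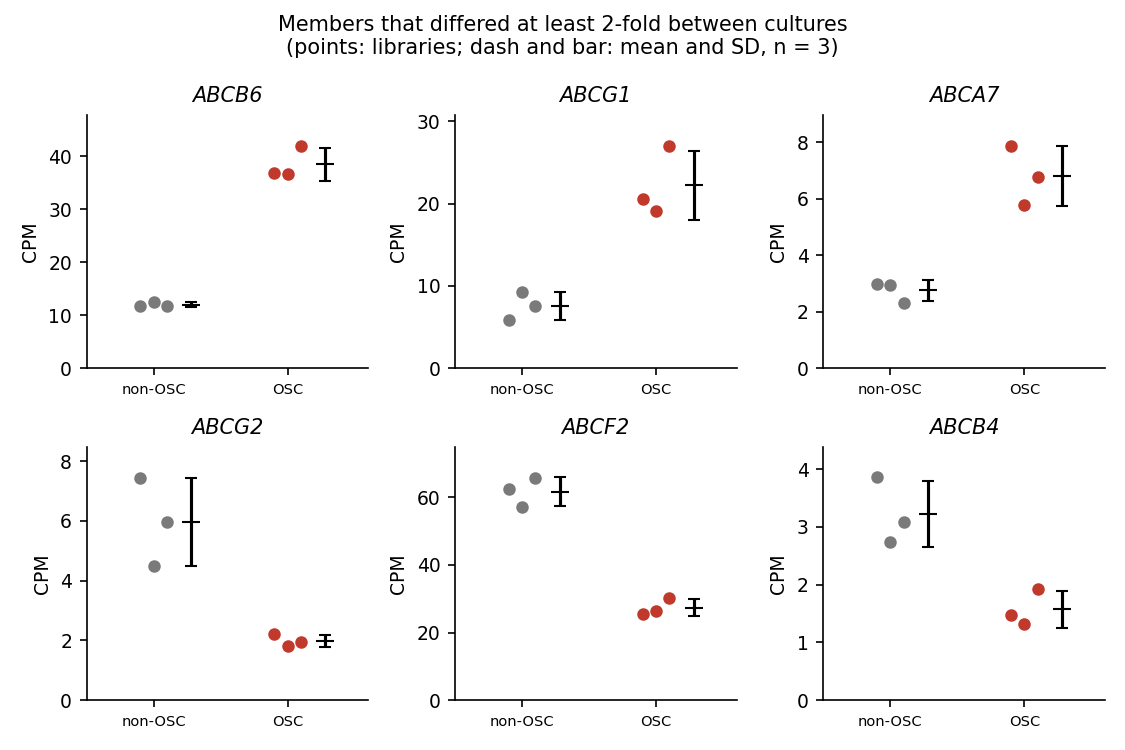
CPM in each library (points) of the 6 members with a log2 fold change of at least 1 in either direction between OSCs (red) and non-OSCs (grey), with mean and SD (n = 3). In every panel the groups stand apart.

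Of the members that serve mitochondrial heme and iron, ABCB6 stood apart from the others. ABCB6 (chr2:219209772-219218994, minus strand), a porphyrin transporter, measured 11.7, 12.5 and 11.7 CPM in non-OSCs and 36.7, 36.6 and 41.9 CPM in OSCs. As counted, this was the largest rise in the family, with group means 3.22-fold apart (log2 fold change 1.68, SE 0.11, adjusted p = 7.8e-12). Of its exon bases, 54.6% belong also to a readthrough gene on the same strand, ENSG00000284820, and 45.0% of its 75-base stretches occur there too. That gene was 13.1 ± 3.81 CPM in non-OSCs and 8.95 ± 0.202 CPM in OSCs. With the counts of both added, a choice made after the data were seen, the log2 fold change of ABCB6 was 0.92 (adjusted p = 1.1e-07), so the direction and the call held but the size did not. At that value ABCB6 ranked below ABCG1 and ABCA7 among the rises, close to ABCA5 (0.93). ABCB8 fell from 24.9 ± 2.06 to 18.1 ± 1.53 CPM (log2 fold change -0.46, SE 0.11). ABCB10 (chr1:229516582-229558707, minus strand), an inner-membrane transporter needed for heme synthesis, measured 32.3, 30.1 and 23.9 CPM in non-OSCs and 24.3, 18.9 and 25.4 CPM in OSCs. These ranges overlapped, and its log2 fold change of -0.34 (SE 0.12, adjusted p = 0.019) became -0.21 without OSC replicate 2 (adjusted p = 0.17), -0.25 without non-OSC replicate 1 (adjusted p = 0.093) and -0.32 without non-OSC replicate 2 (adjusted p = 0.062).

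Of 17 genes of iron-sulfur cluster and heme metabolism, 2 were higher and 8 lower in OSCs, with a median log2 fold change of -0.21. The share called, 58.8%, was below the 63.9% of all genes. HMOX1, which degrades heme, measured 11.5, 13.1 and 11.9 CPM in non-OSCs and 328.5, 328.5 and 355.8 CPM in OSCs (log2 fold change 4.79, SE 0.07, adjusted p = 3.0e-22). NFS1, the cysteine desulfurase that supplies the sulfur, fell most, from 34.5 ± 2.76 to 12.3 ± 0.855 CPM (log2 fold change -1.49, SE 0.11).

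ABCD3, which carries branched-chain and dicarboxylic acyl-CoA into peroxisomes, was 45.6 ± 1.93 CPM in non-OSCs and 39.1 ± 2.4 CPM in OSCs (log2 fold change -0.22, SE 0.08, adjusted p = 0.025), and ABCD2 was not tested. Of 12 peroxisome import and beta-oxidation genes 11 were tested, of which 1 was higher and 4 lower, a share of 45.5% beside 63.9% of all genes. Without non-OSC replicate 2 or OSC replicate 2, 3 were called in place of 5. The peroxin PEX16 fell most among the genes of at least 5 CPM, from 12.0 to 8.95 CPM (log2 fold change -0.43, SE 0.15). ABCD4, which works with cobalamin in lysosomes, was 50.0 ± 5.84 and 42.6 ± 4.12 CPM (log2 fold change -0.22, SE 0.09, adjusted p = 0.041). ABCB9, a lysosomal peptide transporter, was 9.28 ± 1.07 CPM in non-OSCs and 12.7 ± 0.735 CPM in OSCs (log2 fold change 0.45, SE 0.15, adjusted p = 0.012), and 24.6% of its exon bases are covered by genes on the opposite strand.

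ABCD3, ABCD4 and ABCB9 lost their calls in some fits without 1 library, while their direction held in all of them. For ABCD3 the log2 fold change was -0.20 without non-OSC replicate 3 (adjusted p = 0.076), -0.22 without OSC replicate 2 (adjusted p = 0.066) and -0.17 without OSC replicate 3 (adjusted p = 0.13). For ABCD4 it was -0.13 without non-OSC replicate 2 (adjusted p = 0.27), -0.14 without OSC replicate 3 (adjusted p = 0.25) and -0.25 without OSC replicate 1 (adjusted p = 0.0504). For ABCB9 it was 0.35 without non-OSC replicate 3 (adjusted p = 0.065).

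Other members of subfamily A were higher in OSCs. ABCA3 (chr16:2275881-2340746, minus strand), the lipid transporter of lamellar bodies, measured 32.9, 35.0 and 31.4 CPM in non-OSCs and 56.1, 57.6 and 62.1 CPM in OSCs (log2 fold change 0.82, SE 0.08, adjusted p = 1.3e-08). ABCA2, an endolysosomal lipid transporter, rose from 75.9 ± 7.64 to 122.1 ± 2.57 CPM (log2 fold change 0.69, SE 0.07). ABCA5 rose from 4.42 ± 0.663 to 8.36 ± 1.18 CPM (log2 fold change 0.93, SE 0.20). For all 3 every OSC library was above every non-OSC library. ABCA5 lies in a cluster with ABCA6, ABCA8, ABCA9 and ABCA10 on chromosome 17, of which it was the only member tested.

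Some members lie within 300000 bases of each other. ABCB8 and ABCF2 on chromosome 7, 163702 bases apart, were both lower in OSCs, as were ABCC5 and ABCF3 on chromosome 3, 168156 bases apart. Of the 25 members tested 13 were lower, and a link to position was not tested. ABCB4 and ABCB1 lie 22582 bases apart on chromosome 7, and ABCB4 passed the threshold while ABCB1 did not, which does not show that they differed in their change. The family also has members that the symbol rule leaves out. TAP1 and TAP2, the 2 chains of the transporter that loads peptides for class I antigen presentation, moved in opposite directions. TAP1 measured 33.7, 36.2 and 40.7 CPM in non-OSCs and 74.3, 80.3 and 83.5 CPM in OSCs (log2 fold change 1.11, SE 0.08). TAP2 measured 130.8, 135.5 and 132.9 CPM in non-OSCs and 71.6, 71.0 and 68.9 CPM in OSCs (log2 fold change -0.92, SE 0.06). CFTR, the chloride channel of the family, had 2 counts in 1 non-OSC library and none in the other 14 libraries.

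The hairpin libraries ask how the family differs in OSCs with less PDK1 RNA. Both PDK1 hairpins were compared with the same 3 shCtrl libraries, so their results are not independent. With shPDK1#1, 1 of 26 members tested passed the threshold, beside 3.06% of all genes tested. With shPDK1#2, 4 of 26 passed, beside 26.2% of all genes. Of these, 2 were higher, beside 12.0% of all genes, and 2 lower, beside 14.2%. The median log2 fold change over the members was -0.01 with each hairpin, and 0.00 and 0.01 over all genes. ABCB10 passed the threshold, lower, with both hairpins. ABCG1 passed, lower, with shPDK1#2 only, though its libraries were below those of shCtrl with both hairpins.

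**Figure D4:**
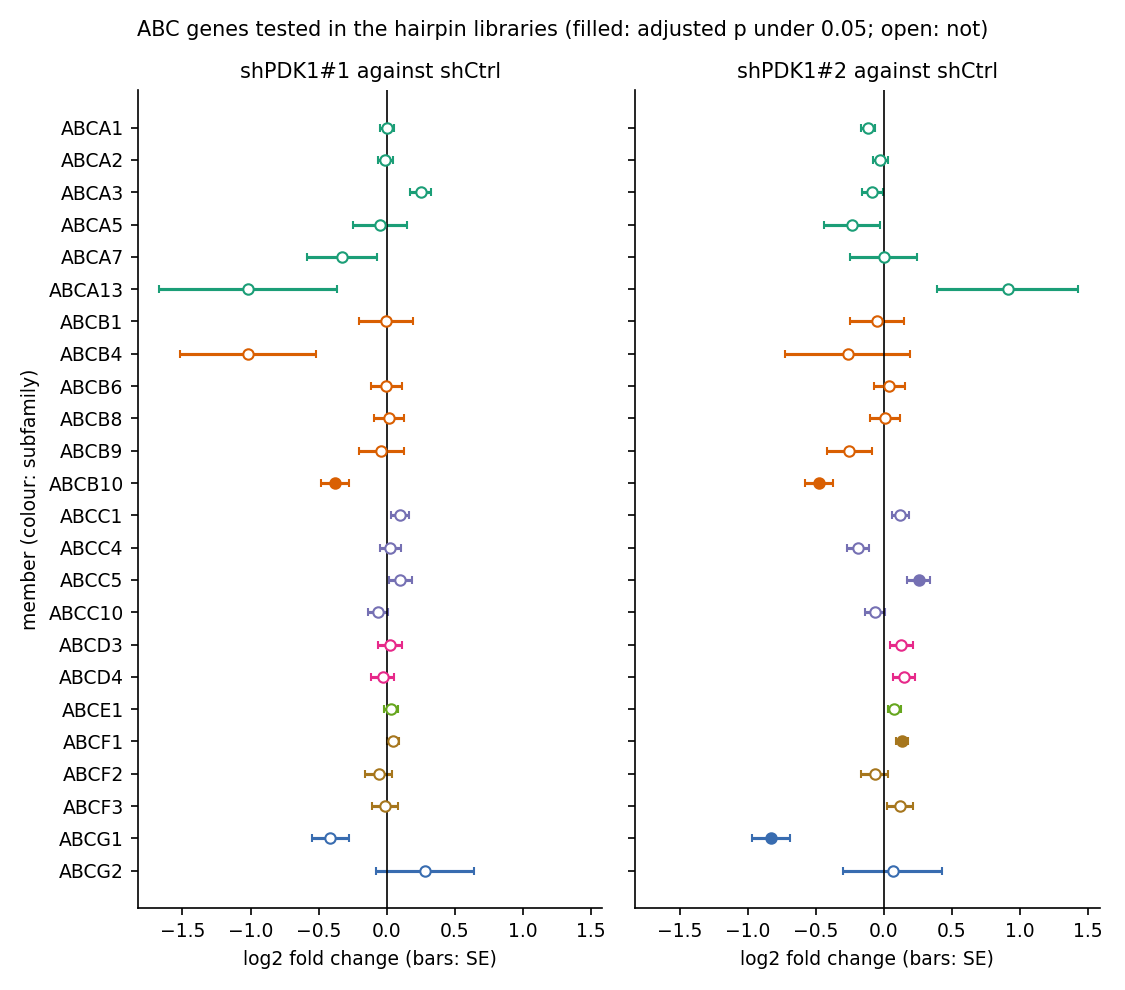
Log2 fold change of 24 members tested with shPDK1#1 (left) and shPDK1#2 (right) against shCtrl, with standard errors, coloured by subfamily. Filled points passed an adjusted p under 0.05: ABCB10 on the left, and ABCB10, ABCC5, ABCF1 and ABCG1 on the right.

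ABCG1 measured 17.1, 17.9 and 16.9 CPM under shCtrl, 12.6, 15.5 and 10.99 CPM under shPDK1#1 and 8.20, 10.8 and 10.3 CPM under shPDK1#2. Every library with a PDK1 hairpin was below every shCtrl library, and the shPDK1#2 libraries were also below those of shPDK1#1. With shPDK1#2 the log2 fold change was -0.83 (SE 0.14, adjusted p = 6.1e-05), at 56.5% of the shCtrl mean. With shPDK1#1 it was -0.42 (SE 0.14) and missed the threshold (adjusted p = 0.11), which it passed without shPDK1#1 replicate 2, at -0.56 (adjusted p = 0.026). Between the hairpins ABCG1 differed by -0.41 (SE 0.15, adjusted p = 0.053). It passed without shPDK1#1 replicate 3, at -0.53 (adjusted p = 0.024), and without shPDK1#2 replicate 2, at -0.49 (adjusted p = 0.047).

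ABCB10 measured 26.0, 25.4 and 24.3 CPM under shCtrl, 19.2, 19.9 and 19.2 CPM under shPDK1#1 and 20.5, 15.9 and 17.9 CPM under shPDK1#2. No library with a PDK1 hairpin reached the lowest shCtrl library. The log2 fold change was -0.38 (SE 0.10, adjusted p = 0.040) with shPDK1#1 and -0.48 (SE 0.10, adjusted p = 9.3e-04) with shPDK1#2, and the hairpins did not differ detectably (-0.10, SE 0.11, adjusted p = 0.59). With shPDK1#1 the call was lost in 7 of 9 fits that left out 1 library, with log2 fold changes between -0.40 and -0.36. The adjusted p in those 7 was 0.15, 0.12 and 0.077 without shCtrl replicates 1, 2 and 3, 0.11, 0.055 and 0.13 without shPDK1#1 replicates 1, 2 and 3, and 0.052 without shPDK1#2 replicate 3.

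ABCB10 was the only member past the threshold with both hairpins, though its shPDK1#1 call was lost in 7 of 9 fits that left out 1 library. It held GC boxes at -56, -113, -119 and -154. The GC box was in 42.6% of all promoters, and a link to the hairpins was not tested. The box at -154 (chr1:229558836-229558881, minus strand) is shown in capitals.
ABCB10: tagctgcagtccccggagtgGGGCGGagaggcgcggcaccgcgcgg

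ABCC5 and ABCF1 were higher with shPDK1#2 by small amounts. ABCC5 measured 31.2, 36.1 and 31.7 CPM under shCtrl, 35.2, 37.1 and 34.1 CPM under shPDK1#1 and 38.4, 41.6 and 38.6 CPM under shPDK1#2 (log2 fold change of shPDK1#2 against shCtrl 0.26, SE 0.08, adjusted p = 0.023). ABCF1 measured 165.1, 159.5 and 166.8 CPM under shCtrl, 172.4, 169.6 and 165.5 CPM under shPDK1#1 and 178.0, 184.7 and 177.3 CPM under shPDK1#2 (0.14, SE 0.04, adjusted p = 0.025). In both genes the shPDK1#2 libraries lay above all others. The ABCC5 call was lost without shCtrl replicate 1 (0.21, adjusted p = 0.11), shCtrl replicate 3 (0.23, adjusted p = 0.089) or shPDK1#2 replicate 2 (0.22, adjusted p = 0.088). The ABCF1 call was lost without shCtrl replicate 1 (0.14, adjusted p = 0.057), shCtrl replicate 2 (0.12, adjusted p = 0.12) or shPDK1#2 replicate 2 (0.12, adjusted p = 0.086).

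The main drug pumps showed no detectable difference with either hairpin. ABCB1 measured 8.22, 7.03 and 4.84 CPM under shCtrl, 7.09, 5.65 and 7.41 CPM under shPDK1#1 and 6.89, 6.57 and 6.04 CPM under shPDK1#2, and the groups overlapped. ABCG2 measured 2.96, 1.51 and 1.37 CPM under shCtrl, 2.74, 2.09 and 2.32 CPM under shPDK1#1 and 2.51, 1.92 and 1.67 CPM under shPDK1#2, on 11 to 27 counts per library. ABCC1 measured 74.1, 81.6 and 86.1 CPM under shCtrl, 86.7, 91.1 and 80.9 CPM under shPDK1#1 and 88.0, 88.2 and 86.4 CPM under shPDK1#2. The adjusted p of shPDK1#2 against shCtrl was 0.88 for ABCB1, 0.92 for ABCG2 and 0.17 for ABCC1. The standard error of the log2 fold change was 0.20 for ABCB1 and 0.36 for ABCG2, so moderate changes of these genes could not be seen at this depth. ABCB6 was 22.4 ± 2.92 CPM under shCtrl, 22.4 ± 2.51 CPM under shPDK1#1 and 22.9 ± 2.34 CPM under shPDK1#2. ABCE1 was 209.1 ± 10.5, 214.0 ± 9.86 and 220.8 ± 7.71 CPM in the same order. ABCC4 was 44.8 ± 3.29 CPM under shCtrl and 39.2 ± 2.76 CPM under shPDK1#2 (log2 fold change -0.19, adjusted p = 0.080). Without shPDK1#2 replicate 1 it passed the threshold, at -0.25 (adjusted p = 0.048).

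**Figure D5:**
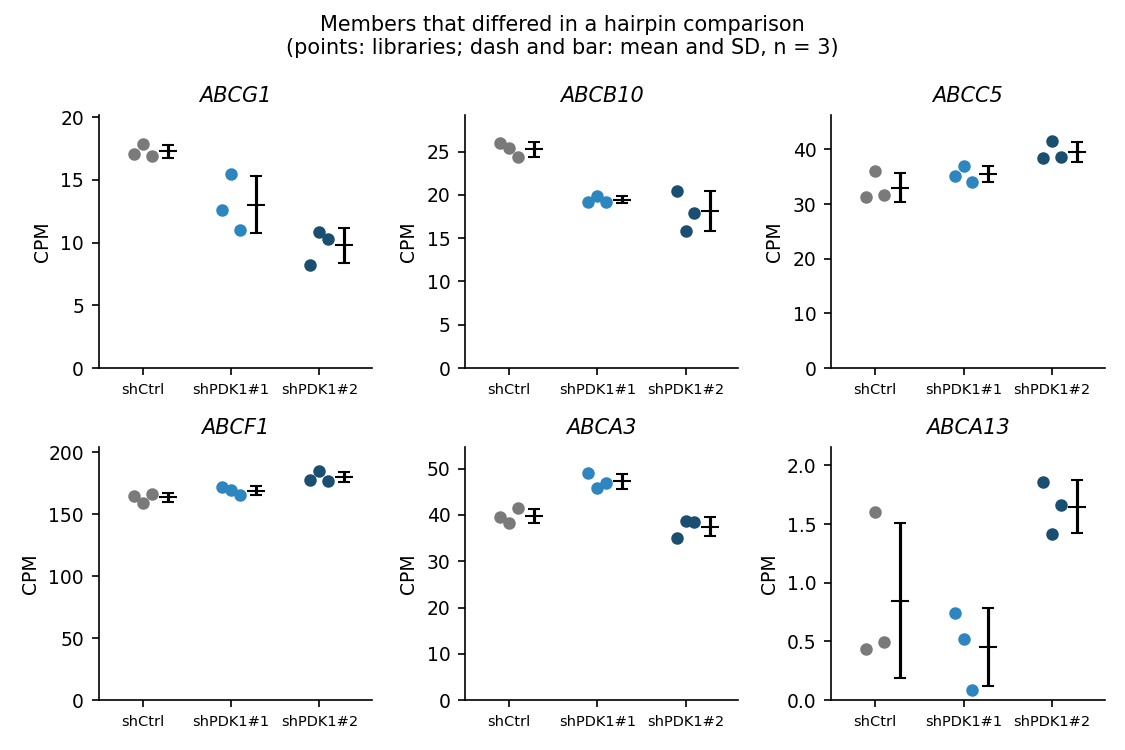
CPM in each hairpin library (points) of the 6 members past the threshold in a comparison among shCtrl, shPDK1#1 and shPDK1#2, with mean and SD (n = 3). ABCG1 and ABCB10 are highest with shCtrl, and ABCA3 is highest with shPDK1#1.

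Between shPDK1#2 and shPDK1#1, 2 of 26 members differed, beside 16.3% of all genes. ABCA3 measured 39.5, 38.3 and 41.5 CPM under shCtrl, 49.0, 45.7 and 46.9 CPM under shPDK1#1 and 35.1, 38.7 and 38.5 CPM under shPDK1#2. It was lower with shPDK1#2 than with shPDK1#1 (log2 fold change -0.33, SE 0.08, adjusted p = 0.0024), while neither hairpin passed the threshold against shCtrl (0.25 with adjusted p = 0.076, and -0.09 with adjusted p = 0.46). ABCA13 (chr7:48171458-48647497, plus strand), a large transporter of subfamily A, had 4, 16 and 4 counts with shCtrl, 6, 5 and 1 with shPDK1#1 and 20, 14 and 16 with shPDK1#2. Its log2 fold change between the hairpins was 1.93 (SE 0.59, adjusted p = 0.023), and shCtrl replicate 2 lay among the shPDK1#2 libraries. Only shPDK1#2 had at least 10 counts in every library. ABCA13 therefore entered the test through the group where it was high, and its p-value is to be read with that limit. The call was lost without shPDK1#1 replicate 3 (1.38, adjusted p = 0.16), shPDK1#2 replicate 1 (1.83, adjusted p = 0.085) or shPDK1#2 replicate 3 (1.92, adjusted p = 0.066). ABCC4 was lower under shPDK1#2 than under shPDK1#1 with no overlap of libraries, but missed the threshold (log2 fold change -0.22, SE 0.08, adjusted p = 0.061). Among the fits run, it passed only without shPDK1#2 replicate 1 (-0.27, adjusted p = 0.040).

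The partner lists were read in the same fits. Of 83 partner genes tested, 3 passed with shPDK1#1 and 30 with shPDK1#2, of which 19 were higher and 11 lower. These were 3.61% of the partner genes beside 3.06% of all genes with shPDK1#1, and 36.1% beside 26.2% with shPDK1#2. With shPDK1#2, 12.0% of all genes were higher and 14.2% lower. Of 17 sterol genes 9 passed (52.9%), 4 higher and 5 lower, and 5 passed without shPDK1#2 replicate 3. LPCAT3, a phospholipid remodelling enzyme, rose most (29.8 to 37.8 CPM, log2 fold change 0.35, SE 0.09), and SMPDL3A fell most (14.02 to 9.44 CPM, -0.56, SE 0.15). Of the ribosome list 7 of 13 passed (53.85%). Of these, 6 were higher, led by EIF2S3 (216.3 to 273.8 CPM, 0.34, SE 0.04), and 1 lower, EIF1 (416.8 to 374.6 CPM, -0.15, SE 0.04). Of the iron-sulfur and heme list 5 of 17 passed, a share of 29.4% that is near the 26.2% of all genes. Without shCtrl replicate 1, shCtrl replicate 3 or shPDK1#2 replicate 1, 3 passed. NFS1 rose from 19.2 to 26.9 CPM (0.49, SE 0.10) and HMOX1 fell from 50.8 to 41.7 CPM (-0.28, SE 0.07).

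Smaller numbers passed in the other lists, and each count fell when some libraries were left out. With shPDK1#2, 40% of the drug response regulators, 20% of the drug handling genes and 18.2% of the peroxisome genes passed. Over all genes the share was 26.2%. The drug response regulators had 2 calls in place of 4 without shCtrl replicate 3, and the drug handling genes 1 in place of 3 without shPDK1#2 replicate 1. The peroxisome genes had 1 in place of 2 without shCtrl replicates 1 or 2 or shPDK1#2 replicates 1 or 3. Of the drug response regulators 4 of 10 passed with shPDK1#2, with AHR rising most (190.0 to 237.9 CPM, 0.32, SE 0.05) and NFE2L2, the oxidative stress regulator, falling (85.4 to 71.6 CPM, -0.25, SE 0.06). Of the 15 drug handling genes 3 passed, with MVP, the major vault protein, falling most (154.5 to 113.2 CPM, -0.45, SE 0.05) and the nucleoside transporter SLC29A1 rising (60.99 to 69.6 CPM, 0.19, SE 0.06). Of 11 peroxisome genes 2 passed, HSD17B4 rising (58.3 to 69.0 CPM, 0.25, SE 0.07) and ACSL1 falling (26.7 to 21.7 CPM, -0.30, SE 0.10). The 3 genes past the threshold with shPDK1#1 were EPAS1 (0.33, SE 0.08), EIF3J (0.22, SE 0.06, adjusted p = 0.041) and EIF2S3, all higher. These calls depended on single libraries. Over 9 fits that left out 1 library, the ribosome list had between 0 and 2 calls with shPDK1#1, with the number changed in 7 fits. The drug response regulators had between 0 and 2, with the number changed in 4 fits. TAP1 was lower with shPDK1#2 than with shCtrl (48.6 ± 1.52 against 60.2 ± 4.04 CPM, log2 fold change -0.31, SE 0.08) and TAP2 was not detectably different (adjusted p = 0.37).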

How the data were processed

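Paired-end RNA-seq libraries of 143B cells (15 libraries, 5 groups of 3) were made with a NEBNext Ultra kit. Per the submitters' processing notes, reads were trimmed with Trimmomatic 0.39, checked with FastQC 0.12.1, aligned to GRCh38.p14 with STAR 2.7.11a and counted with RSEM 1.3.3. The authors deposited expected counts per gene without normalization between libraries. The annotation and strandedness are not given in the sources used here. Of the values, 6.85% and 6.92% were not whole in the 2 tables, and all were rounded. Each table was fitted alone with edgeR 4.0.16 in R 4.3.3 (TMM, filterByExpr by group, quasi-likelihood test) and Benjamini-Hochberg adjustment over all genes tested (14287 and 14574, threshold 0.05). The 9 hairpin libraries shared 1 fit. CPM used TMM-scaled totals. CPM per kb used the canonical transcript of GENCODE 44, in which all 62700 identifiers were found. Depth limits the precision of genes of few counts, and a group of at most 3 counts per library was given no fold.

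Members were ABC symbols of subfamilies A to G. Values in every library were given for members that differed by a log2 fold change of at least 1 between OSCs and non-OSCs, passed in a comparison of hairpins, or were ABCB1, ABCC1, ABCG1 or ABCG2. ABCE1 was added after its values were seen, as were the counts of ABCC9 and ABCA4. Of each partner list, the largest rise and fall with a mean of at least 5 CPM were named. Members, lists and rules were chosen with earlier results of these data known. The test was also run on counts simulated from these libraries with the same spread for every gene, unlike the data. Alternatives were DESeq2 1.42.0 with its size factors, library size alone, no filter, a stricter filter (every library at 10 counts or more), the replicate number as a block, fits of the compared groups alone, each library left out, and, added after the data were seen, the counts of readthrough genes added to ABCB6 and ABCF2. Protein sequences were not analysed here, and a few genes that enter the counts are not reported here by name or drawn.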

Additional observations from a re-analysis of the deposited data

Results flagged for a closer look

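The difference between the PDK1 hairpins was tested directly and passed the threshold for 2 members. ABCA3 was lower with shPDK1#2 than with shPDK1#1, at a log2 fold change of -0.33 (adjusted p = 0.0024), and all 3 shPDK1#2 libraries were below all 3 shPDK1#1 libraries. ABCA13 was higher with shPDK1#2, at 1.93 (adjusted p = 0.023), on 1 to 20 counts per library. It passed the filter on low counts only through the shPDK1#2 libraries, so this call gives no support of its own. PDK1 itself was lower with shPDK1#2 than with shPDK1#1 (log2 fold change -0.50), and the part of this in the differences was not tested.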

How the results depend on the processing

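The number of members past the threshold in OSCs against non-OSCs was 21 and stayed between 19 and 21 under every alternative, leave-one-out fits included (19 to 20). DESeq2 with its size factors called 0 members with shPDK1#1 (1 in edgeR), where ABCB10 had an adjusted p of 0.078 and 3 of the members in edgeR had an unadjusted p under 0.05. It called 1 member between the hairpins (2 in edgeR), and gave ABCA13 no adjusted p. Leaving out 1 library gave between 0 and 1 members with shPDK1#1, between 2 and 5 with shPDK1#2 (2 without shCtrl replicate 1) and between 1 and 4 between the hairpins (1 without shPDK1#2 replicate 3, 4 without shPDK1#2 replicate 2). For the partner genes the leave-one-out ranges were 50 to 57 of 83 in OSCs, 0 to 4 with shPDK1#1 (0 without shCtrl replicate 3 or shPDK1#1 replicates 1 or 3, 1 without shCtrl replicate 1), 21 to 30 with shPDK1#2 and 10 to 21 between the hairpins. Besides the values given with the leave-one-out fits, ABCD3 lost its call in OSCs with DESeq2 (log2 fold change -0.22, adjusted p = 0.054), library size alone (-0.18, adjusted p = 0.060) and no filter (-0.21, adjusted p = 0.056), and ABCD4 with DESeq2 (-0.23, adjusted p = 0.066) and library size alone (-0.19, adjusted p = 0.091). ABCC5 lost its call with shPDK1#2 under DESeq2 (0.25, adjusted p = 0.056). No member whose difference passed the threshold changed sign. Without the filter ABCC9 was also called (adjusted p = 0.031).

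Deviations of same-numbered libraries of different groups were only weakly correlated (between -0.05 and 0.09). This does not settle whether the numbers pair samples, and the labels do not say what a number stands for. With the replicate block 21, 1, 4 and 3 members were called in the 4 comparisons in the order above. The third call between the hairpins was ABCG1 (log2 fold change -0.41, adjusted p = 0.046), which also passed with at least 10 counts in every library (adjusted p = 0.047).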
